A study of Mus musculus with 6 samples.

Results

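The plasma cell regulators and secretory machinery examined here are 10 mouse genes chosen by name, Xbp1, Prdm1, Irf4, Sdc1, Jchain, Mzb1, Sec11c, Edem1, Fkbp11 and Derl3. Every array probe whose accession matched one of these genes in a RefSeq table was kept. This gave 10 probes of 7 genes, out of 41006 probes and 37487 gene names on the array. Prdm1, Edem1 and Derl3 each had 2 probes, called the brighter and the dimmer probe after their mean sample signal, and the other 4 genes had 1 probe each. No probe matched Sdc1, which encodes the plasma cell surface proteoglycan syndecan-1. Nor did any match Jchain, which encodes the chain that joins IgA and IgM into polymers, or Mzb1, which encodes an ER chaperone of B lineage cells. These 3 genes were not analysed here.

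Plasma cells are the antibody-secreting end stage of the B lineage. The transcription factors Irf4 and Prdm1 (Blimp-1) turn off the B cell programme and establish secretion, and Xbp1 acts downstream to enlarge the endoplasmic reticulum (ER). In that organelle new secretory chains lose their signal peptide to signal peptidase, which contains Sec11c, are folded with the help of prolyl isomerases such as Fkbp11, and, if misfolded, are passed to ER-associated degradation, in which Edem1 and Derl3 take part.

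The study asked, as its title frames it, which genes in naive lymph nodes depend on TNF made by T cells and by B cells. TB_TNF_KO stands for the knockout labelled TB-TNF KO double and B_TNF_KO for the one labelled B-TNF KO. Both groups were naive adults, both carried a TNF knockout, and no wild-type sample was analysed here. The labels give neither the promoter that drives either deletion nor the exact age of the mice. Each group had 3 arrays, and each array held RNA from the pooled mesenteric lymph nodes of 3 mice. The pools were labelled male except TB_TNF_KO array 2, labelled female. Sample RNA carried Cy3, and every array also carried the same Cy5-labelled pool of RNA from 11 mouse cell lines. Values below are log2 ratios of sample over this pool unless stated otherwise, so 0 means a signal equal to that of the pool after normalisation. In whole nodes, fewer cells of a type and less RNA per cell cannot be told apart.

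TB_TNF_KO arrays 1 and 2 differed by little more than the technical noise. Their sample channels differed with an SD 1.11 times that seen between their reference channels, a factor of 1.23 to 1.76 in the other 14 pairs of arrays. They were averaged and counted as 1 sample, giving n = 2 against n = 3. TB_TNF_KO array 1 was labelled male, but the Y-linked gene Eif2s3y had a ratio of -2.81 on it and -2.84 on the array labelled female, against 0.59 to 1.83 on the other 4. Tnf, the targeted gene, had ratios of -0.66, -0.63 and -0.84 on TB_TNF_KO arrays 1, 2 and 3, against 0.19, 0.36 and 0.49 on B_TNF_KO arrays 1, 2 and 3 by its brighter probe. The difference was -1.09 (SE 0.10, limma adjusted p = 0.055), while its dimmer probe differed by -0.26 (SE 0.06, adjusted p = 0.099). Whether either probe lies in deleted sequence is not known here. The 11 T cell markers measured had median ratios of 2.23 to 2.26 on TB_TNF_KO arrays and 2.17 to 2.43 on B_TNF_KO arrays. Median sample intensity was 143 to 166 on TB_TNF_KO arrays and 158 to 203 on B_TNF_KO arrays. Each group was extracted from its scans on 1 day of its own, so extraction day and genotype cannot be told apart.

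All 10 probes were well above background in both channels on all 6 arrays, and none was saturated. None of the 10 passed limma's threshold of an adjusted p under 0.05, in either direction, when p was adjusted over the 40791 probes tested. The same test called 0% of all probes higher and 0.0147% lower (6 probes) in TB_TNF_KO. At an unadjusted p under 0.05, 0 of the 10 were higher and 2 were lower, against 5.02% and 11.2% of all probes. The TB_TNF_KO arrays all lay below the B_TNF_KO arrays for 2 of the 10, Sec11c and the dimmer Prdm1 probe, and all above for 0, where 17% and 10.6% of all probes did so. The median difference was -0.00 over the 10 probes and -0.01 over all probes. The size of the difference, sign ignored, had a median of 0.07 over the 10 probes and 0.06 over all probes. In the reference channel alone, which carried the same RNA on every array, 0 of the 10 were higher and 2 lower at an unadjusted p under 0.05, against 8.99% and 13.6% of all probes. As a set these probes therefore gave counts near those of the whole array.

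**Figure D1:**
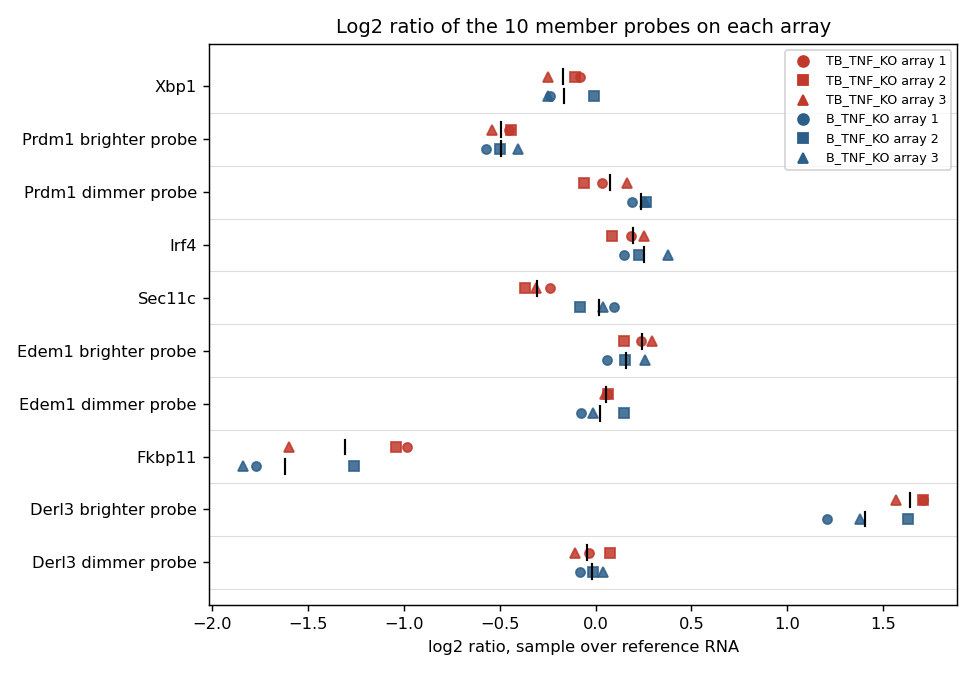
Log2 ratio of sample over reference RNA (x axis) for each of the 10 probes (y axis), with TB_TNF_KO arrays in red above B_TNF_KO arrays in blue, 1 point per array and a black bar at the group mean with TB_TNF_KO arrays 1 and 2 averaged first. Sec11c lies between -0.37 and -0.24 on TB_TNF_KO arrays and between -0.08 and 0.10 on B_TNF_KO arrays, while Fkbp11 spreads over -1.60 to -0.98 and -1.84 to -1.26 and overlaps.

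Of the regulators, Xbp1, the transcription factor made active by Ire1-dependent splicing, had ratios of -0.08, -0.11 and -0.25 on TB_TNF_KO arrays 1, 2 and 3, against -0.24, -0.01 and -0.25 on B_TNF_KO arrays 1, 2 and 3. The 2 groups covered nearly the same range, and array 3 was the lowest of each. The difference was -0.01 (SE 0.09), with a 95% interval of -0.23 to 0.22 (limma adjusted p = 0.986). Its raw sample intensity was 3346.5 to 4053 on TB_TNF_KO arrays and 5213.5 to 5940 on B_TNF_KO arrays. That gap did not appear in the normalised ratio. Spliced and unspliced Xbp1 were not measured separately here.

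Prdm1 encodes Blimp-1, the repressor that shuts down B cell genes. Its brighter probe had ratios of -0.45, -0.44 and -0.54 on TB_TNF_KO arrays and -0.57, -0.50 and -0.41 on B_TNF_KO arrays. The groups overlapped, and the difference was -0.00 (SE 0.06), with an interval of -0.16 to 0.16 (limma adjusted p = 0.995). Its dimmer probe had 0.03, -0.06 and 0.17 on TB_TNF_KO arrays and 0.19, 0.26 and 0.26 on B_TNF_KO arrays. Here every TB_TNF_KO array was below every B_TNF_KO array, though TB_TNF_KO array 3 and B_TNF_KO array 1 were close. The difference was -0.16 (SE 0.06; unadjusted p = 0.047, limma adjusted p = 0.301), with an interval of -0.32 to -0.00. The raw sample intensity of this probe was 100.2 to 140.4 on TB_TNF_KO arrays and 147.8 to 204.1 on B_TNF_KO arrays. That of the brighter probe was also lower in TB_TNF_KO, at 306.7 to 338.9 against 354.3 to 485.1. In the normalised ratio the 2 Prdm1 probes did not give the same order of the groups.

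Irf4, which acts in both germinal centre exit and plasma cell formation, had ratios of 0.18, 0.09 and 0.25 on TB_TNF_KO arrays and 0.15, 0.23 and 0.38 on B_TNF_KO arrays. The highest value was on B_TNF_KO array 3 and the lowest on TB_TNF_KO array 2, with the rest intermixed. The difference was -0.06 (SE 0.08), with an interval of -0.25 to 0.14 (limma adjusted p = 0.802). The intervals of Xbp1, Irf4 and the brighter Prdm1 probe all contained 0 and reached no further than 0.25 from it on either side.

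Sec11c, a catalytic subunit of signal peptidase, had the most negative difference of the 10 probes. Its ratio was -0.24, -0.37 and -0.31 on TB_TNF_KO arrays 1, 2 and 3, against 0.10, -0.08 and 0.04 on B_TNF_KO arrays 1, 2 and 3. No TB_TNF_KO array reached the lowest B_TNF_KO array. The mean was -0.31 ± 0.00 in TB_TNF_KO (SD, n = 2) and 0.02 ± 0.09 in B_TNF_KO (SD, n = 3). The TB_TNF_KO SD leaves out the spread between arrays 1 and 2, at -0.24 and -0.37, which were averaged first. The difference was -0.32 (SE 0.06; unadjusted p = 0.0020, limma adjusted p = 0.083), with an interval of -0.48 to -0.17. It did not pass the threshold, and 3.87% of all probes had a difference at least as large in size.

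Raw sample intensity of Sec11c was 2451, 2018 and 2736 on TB_TNF_KO arrays, against 4569, 3386.5 and 5038 on B_TNF_KO arrays, while the reference intensity stayed within 7882 to 8443 on all 6. These raw intensities were not scaled between arrays, and Xbp1 had a like gap, at 3346.5 to 4053 against 5213.5 to 5940. The normalised ratio of Xbp1 differed by -0.01. In the normalised sample channel alone the difference was -0.34 (limma adjusted p = 0.090), and in the reference channel alone it was -0.06 (unadjusted p = 0.19). The difference was -0.31 between arrays 1 and 2 of both groups and -0.35 between the 2 arrays numbered 3. With the 6 arrays counted separately the limma adjusted p was 0.026, and Sec11c was then the only one of the 10 probes called, against 1.46% of all probes called higher and 4.58% called lower. With the replicate number as a block in addition, the adjusted p was 0.016, against 1.81% and 6.21% of all probes. If TB_TNF_KO arrays 1 and 2 held 1 RNA, both fits count 1 sample as 2 and their p-values are too small. The probe's GC content is 35%, and among the 7437 probes with up to 35% GC, 23.2% were lower in TB_TNF_KO at an unadjusted p under 0.05, against 2.87% among probes over 55% GC. With ratios corrected for GC content the difference was -0.30 (limma adjusted p = 0.095).

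**Figure D2:**
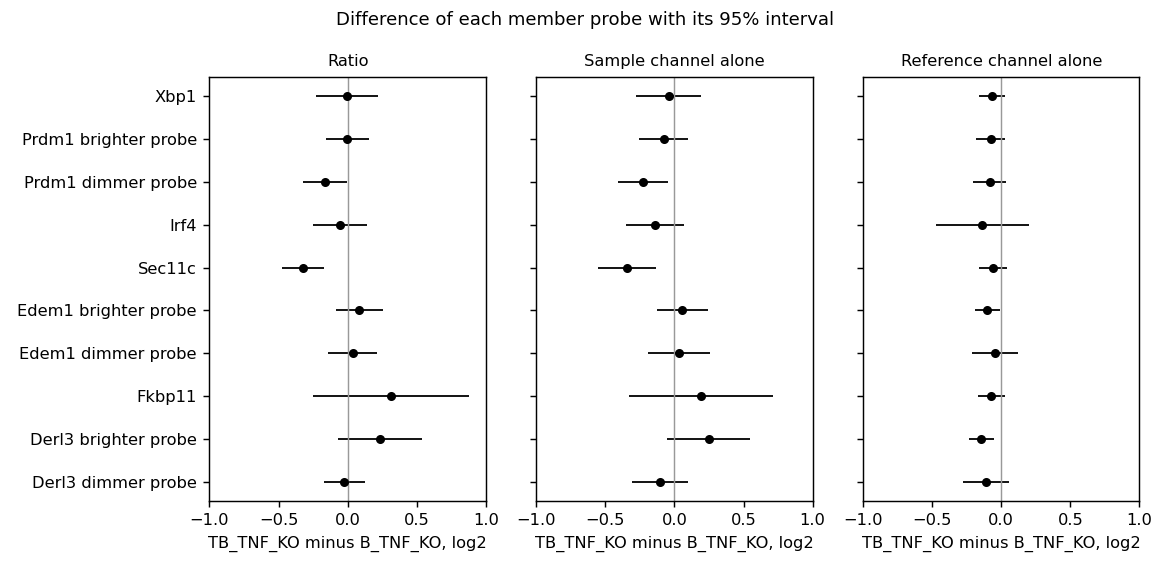
Difference TB_TNF_KO minus B_TNF_KO on the log2 scale (x axis) for the 10 probes (y axis) in the ratio, in the sample channel alone and in the reference channel alone; points are limma estimates and bars their 95% intervals. Sec11c stands at -0.32 in the ratio and -0.34 in the sample channel but at -0.06 in the reference channel, and all 10 points of the reference channel lie below 0, between -0.14 and -0.04.

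The other genes of ER translocation and signal peptide processing were read from a list of 24 genes, of which 19 were measured, each by its brightest probe. None passed the threshold, where 0% of all 37294 genes were called higher and 0.0134% lower. At an unadjusted p under 0.05, 0 were higher and 3 lower, against 4.96% and 11.3% of all genes. With the replicate number as a block, 0 were called higher and 3 lower, against 1.75% and 6.28% of all genes. Here and in the lists below, that fit counts TB_TNF_KO arrays 1 and 2 as 2 samples. Its p-values are too small if these arrays held 1 RNA. Ostc, an accessory subunit of the oligosaccharyltransferase that adds N-glycans, had ratios of -0.31, -0.45 and -0.34 on TB_TNF_KO arrays and 0.08, 0.13 and 0.21 on B_TNF_KO arrays. The groups did not overlap, and the difference was -0.50 (SE 0.05, limma adjusted p = 0.055, and 0.013 with the replicate block).

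Sec11a, the other catalytic subunit of signal peptidase, had ratios of -0.07, -0.16 and -0.20 on TB_TNF_KO arrays and 0.17, 0.05 and 0.16 on B_TNF_KO arrays. These groups did not overlap either, and the difference was -0.28 (SE 0.06, limma adjusted p = 0.094, and 0.033 with the replicate block). The noncatalytic subunits Spcs1 and Spcs2 were added after their values were seen. Spcs1 had -0.29, -0.38 and -0.34 on TB_TNF_KO arrays and -0.15, -0.24 and -0.28 on B_TNF_KO arrays, a difference of -0.11 (SE 0.05, limma adjusted p = 0.369) without overlap. Spcs2 differed by 0.01 (SE 0.08, limma adjusted p = 0.957), with overlapping groups. In the fit without a block, both catalytic subunits thus had an unadjusted p under 0.05 and neither of these 2 noncatalytic ones did. With the replicate block, Spcs1 also had an unadjusted limma p under 0.05 (0.035, adjusted p = 0.168). Spcs3 of the same list was not measured, and the difference between subunits was not tested. At the other end of the list, Sec61g, a small subunit of the translocon channel, differed by 0.12 (SE 0.05, adjusted p = 0.340) on its brighter probe and by 0.20 on its other, and Ssr2 of the translocon-associated complex by 0.08 (SE 0.07, adjusted p = 0.659).

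**Figure D3:**
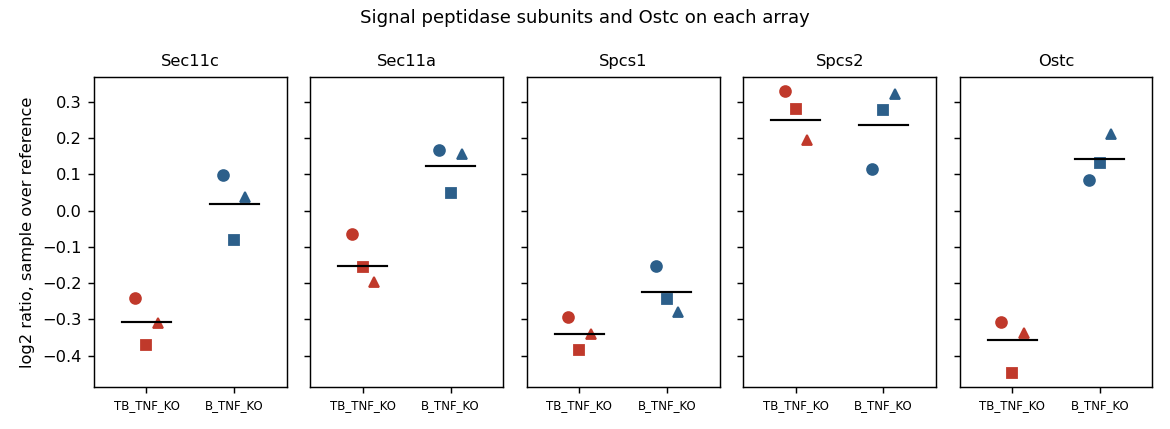
Log2 ratio of sample over reference RNA (y axis) on each TB_TNF_KO array (red, left) and B_TNF_KO array (blue, right) for Sec11c, Sec11a, Spcs1, Spcs2 and Ostc, with circles, squares and triangles for arrays 1, 2 and 3 and a bar at the group mean with TB_TNF_KO arrays 1 and 2 averaged first. The groups are apart for Sec11c, Sec11a, Spcs1 and Ostc and overlap for Spcs2.

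Fkbp11 encodes an ER prolyl isomerase, and its probe is printed because it had the widest spread between arrays of the 10. The letters come from the deposited probe annotation.
Fkbp11 probe: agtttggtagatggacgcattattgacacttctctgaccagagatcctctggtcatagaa

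Fkbp11 had ratios of -0.98, -1.04 and -1.60 on TB_TNF_KO arrays 1, 2 and 3, against -1.77, -1.26 and -1.84 on B_TNF_KO arrays 1, 2 and 3. Within TB_TNF_KO, array 3 stood well below the other two, and within B_TNF_KO, array 2 stood above the other two, so the groups overlapped. The mean was -1.31 ± 0.42 in TB_TNF_KO (SD, n = 2) and -1.62 ± 0.32 in B_TNF_KO (SD, n = 3). The difference of 0.32 (SE 0.23) had an interval of -0.25 to 0.88 (limma adjusted p = 0.585). It was 0.50 between arrays 1 and 2 of both groups, 0.24 between the 2 arrays numbered 3, and 0.61 without TB_TNF_KO array 3.

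The spread of Fkbp11 followed in part the level of exocrine pancreas transcripts, which mark the enzyme-secreting tissue that lies beside mesenteric nodes. The 18 pancreas markers measured, of 28 listed, had median ratios of 4.37, 4.25 and 0.04 on TB_TNF_KO arrays 1, 2 and 3 and of 2.94, 4.10 and 0.05 on B_TNF_KO arrays 1, 2 and 3. Their summed sample intensity was 383313, 362961 and 4646 on TB_TNF_KO arrays and 147460, 355870 and 5798 on B_TNF_KO arrays. Cela2a, Try4 and Prss2, the 3 brightest markers, were saturated on TB_TNF_KO arrays 1 and 2 and on B_TNF_KO array 2, so the sums of these arrays are lower bounds. None of the 18 was at background on either array numbered 3. Fkbp11 was highest on the 3 arrays with the highest marker medians, TB_TNF_KO arrays 1 and 2 and B_TNF_KO array 2. B_TNF_KO array 1, with a marker median of 2.94, did not follow. Its Fkbp11 ratio of -1.77 was below the -1.60 of TB_TNF_KO array 3 and near the -1.84 of B_TNF_KO array 3. Arrays 1 and 2 exceeded array 3 by 0.59 in TB_TNF_KO and by 0.32 in B_TNF_KO for Fkbp11, against 0.00 and -0.03 for Sec11c. The part of these transcripts in the Fkbp11 values was not tested.

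**Figure D4:**
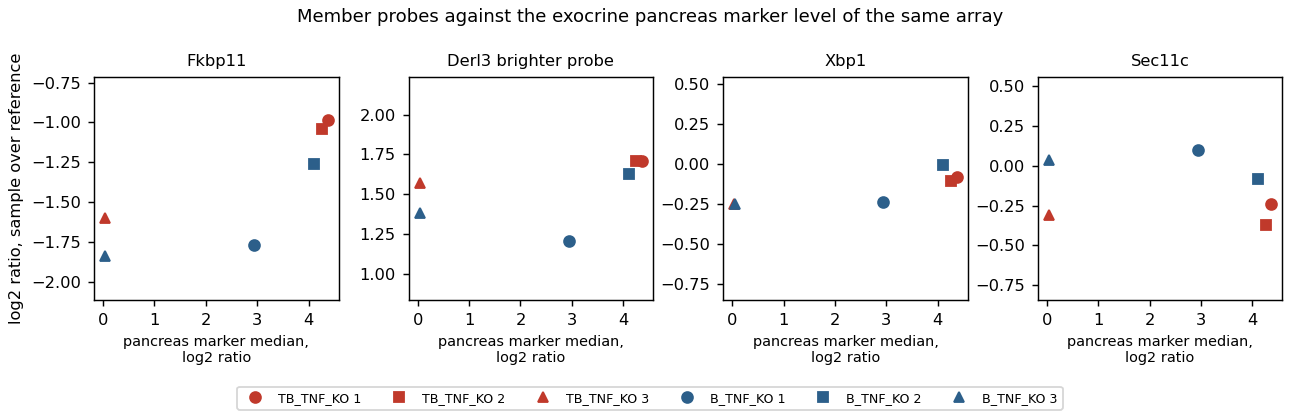
Log2 ratio of sample over reference RNA (y axis) of Fkbp11, the brighter Derl3 probe, Xbp1 and Sec11c against the median log2 ratio of 18 exocrine pancreas markers on the same array (x axis), 1 point per array with TB_TNF_KO in red and B_TNF_KO in blue. The 3 arrays with marker medians of 4.10 to 4.37 hold the highest Fkbp11, Derl3 and Xbp1 values, while Sec11c is lower on each TB_TNF_KO array than on any B_TNF_KO array.

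Edem1, a lectin that directs misfolded glycoproteins to degradation, was read by 2 probes. The brighter probe had ratios of 0.24, 0.15 and 0.29 on TB_TNF_KO arrays and 0.06, 0.15 and 0.26 on B_TNF_KO arrays, a difference of 0.09 (SE 0.07, limma adjusted p = 0.634) with an interval of -0.09 to 0.26. The dimmer probe had 0.06, 0.07 and 0.05 on TB_TNF_KO arrays and -0.07, 0.15 and -0.01 on B_TNF_KO arrays, a difference of 0.04 (SE 0.07, adjusted p = 0.865) with an interval of -0.14 to 0.21. The groups overlapped on both probes, and the lowest of the 6 arrays was B_TNF_KO array 1 on each.

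Derl3, a derlin of the ER-associated degradation channel and a known target of the Ire1 and Xbp1 branch, also had 2 probes. They are printed because their values did not follow each other.
Derl3 brighter probe: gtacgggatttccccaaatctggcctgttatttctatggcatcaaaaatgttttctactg
Derl3 dimmer probe: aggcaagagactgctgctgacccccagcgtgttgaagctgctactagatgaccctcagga

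The brighter Derl3 probe, of 40% GC, had ratios of 1.71, 1.71 and 1.57 on TB_TNF_KO arrays 1, 2 and 3, against 1.21, 1.63 and 1.38 on B_TNF_KO arrays 1, 2 and 3. TB_TNF_KO arrays 1 and 2 were the highest and B_TNF_KO array 1 the lowest, but B_TNF_KO array 2 lay above TB_TNF_KO array 3. The difference was 0.23 (SE 0.12, limma adjusted p = 0.432), with an interval of -0.07 to 0.54. In the normalised sample channel alone the difference was 0.25 (limma adjusted p = 0.299). In the normalised reference channel alone, where the same RNA lay on every array, it was -0.14 (limma unadjusted p = 0.0097, limma adjusted p = 0.131). The raw reference intensity of this probe was 1074.3 to 1124.1 on TB_TNF_KO arrays and 1068.1 to 1103.9 on B_TNF_KO arrays. These raw values overlapped and were not lower in TB_TNF_KO. The dimmer probe, of 56.7% GC, had -0.03, 0.07 and -0.11 on TB_TNF_KO arrays and -0.08, -0.01 and 0.04 on B_TNF_KO arrays. Its difference was -0.03 (SE 0.06, adjusted p = 0.886), with an interval of -0.17 to 0.12. The brighter probe was lowest on B_TNF_KO array 1 and the dimmer on TB_TNF_KO array 3, so the 2 probes did not order the arrays alike.

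The promoter of Derl3 is shown because it alone among the members' promoters held an exact match to a binding element of the ER stress response. RefSeq promoter windows of GRCm38.p6, from 250 bases before to 50 after a gene's start, were matched by symbol for 8 of the 10 genes in 9 windows. They were searched on both strands for the ER stress response element (CCAAT and CCACG with 9 free bases between them), its second form (ATTGG and CCACG with 1 free base between them) and the unfolded protein response element (TGACGTGG), which share the letters CCACG when read on one strand or the other. The first was in 1 of the 9 windows and in 0.119% of all 32851 windows, the second in 0 and in 0.0365%, and the third in 0 and in 0.676%. The 250 bases before the Derl3 start on the plus strand, chr10:75893148-75893397, follow with the match in capitals, read here on the reverse strand of the element.
Derl3 promoter: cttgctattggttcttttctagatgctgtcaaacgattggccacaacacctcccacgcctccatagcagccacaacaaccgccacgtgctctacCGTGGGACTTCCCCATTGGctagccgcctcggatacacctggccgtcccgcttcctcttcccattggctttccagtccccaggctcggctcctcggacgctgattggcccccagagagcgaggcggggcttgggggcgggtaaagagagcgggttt

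The match is a description of letters and not of factor binding. Derl3, with the match, and Xbp1, Edem1 and Fkbp11, without one, all had differences that did not pass the threshold.

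ER chaperones and folding enzymes were read from a list of 24 genes, of which 20 were measured. None passed the threshold, and at an unadjusted p under 0.05, 1 was higher and 3 were lower, against 4.96% and 11.3% of all genes. The block fit, with TB_TNF_KO arrays 1 and 2 as 2 samples, called 1 higher and 1 lower, against 1.75% and 6.28% of all genes. Hspa5 (BiP), the main ER chaperone and a standard readout of the unfolded protein response, had ratios of -0.36, -0.38 and -0.35 on TB_TNF_KO arrays and -0.75, -0.21 and -0.46 on B_TNF_KO arrays. The TB_TNF_KO arrays lay inside the range of the B_TNF_KO arrays, and the difference was 0.11 (SE 0.15, limma adjusted p = 0.776). Dnajb9 (ERdj4), a BiP cochaperone induced by Xbp1, had 0.23, 0.17 and -0.02 on TB_TNF_KO arrays and 0.22, 0.38 and 0.39 on B_TNF_KO arrays, a difference of -0.24 (SE 0.09, adjusted p = 0.254). Dnajc3, another BiP cochaperone, differed by -0.39 (SE 0.11, adjusted p = 0.166) with groups that did not overlap. Ppib (cyclophilin B), an ER prolyl isomerase like Fkbp11, had 0.38, 0.34 and 0.31 on TB_TNF_KO arrays and 0.16, 0.16 and 0.12 on B_TNF_KO arrays, a difference of 0.19 (SE 0.04, adjusted p = 0.117, and 0.041 with the replicate block). Calr, the lectin chaperone calreticulin, differed by -0.31 on its brighter probe (SE 0.13, adjusted p = 0.334) and by 0.13 on its other probe. Hsp90b1 (GRP94) differed by 0.29 (SE 0.13, adjusted p = 0.345) on a probe saturated on some arrays, and by 0.06 (SE 0.16, adjusted p = 0.905) on its other probe.

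Of 17 genes of ER-associated degradation, 11 were measured, and none passed the threshold, while 0 were higher and 2 lower at an unadjusted p under 0.05, where 4.96% and 11.3% of all genes were. Ufd1, a cofactor of the p97 ATPase that extracts substrates, had ratios of -0.43, -0.44 and -0.38 on TB_TNF_KO arrays and -0.24, -0.28 and -0.14 on B_TNF_KO arrays. The groups did not overlap, and the difference was -0.19 (SE 0.06, limma adjusted p = 0.192, and 0.045 with the replicate block). Of the 11 genes, that block fit called 0 higher and 2 lower, against 1.75% and 6.28% of all genes. It counts TB_TNF_KO arrays 1 and 2 as 2 samples. Edem2 differed by 0.13 (SE 0.11, adjusted p = 0.649) on its brighter probe and by -0.07 on its other, and Selenos by 0.07 (SE 0.06, adjusted p = 0.626).

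The sensors and effectors of the unfolded protein response had 10 of 14 genes measured, and 0 had an unadjusted p under 0.05 in either direction, against 4.96% of all genes higher and 11.3% lower. No probe matched Ern1 (Ire1) or Atf6. Eif2ak3 (PERK), the sensor kinase that slows translation, differed by -0.12 (SE 0.07, limma adjusted p = 0.487) on its brighter probe and by -0.03 on its other. Ppp1r15a (GADD34), which reverses that step, differed by -0.05 (SE 0.08, adjusted p = 0.829) on its brightest probe. Its other probes differed by 0.04 (SE 0.11) and 0.45 (SE 0.08, unadjusted p = 0.0011, adjusted p = 0.067), so the 3 probes did not read alike. Bhlha15 (Mist1), a transcription factor of secretory cells that lies downstream of Xbp1, differed by 0.06 (SE 0.09, adjusted p = 0.799). Mbtps2, the protease that releases Atf6, differed by 0.08 (SE 0.05, adjusted p = 0.508). By the brightest probes the differences of this list ran from -0.12 to 0.08.

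In ER to Golgi transport, 17 of 21 genes were measured, with none past the threshold and 0 higher and 3 lower at an unadjusted p under 0.05, beside 4.96% and 11.3% of all genes. The median difference of the list was -0.09, against -0.01 over all genes, with 14 of the 17 genes negative, as were 55% of all genes. Sec24d, a cargo adaptor of COPII vesicles, had ratios of -1.20, -1.25 and -1.45 on TB_TNF_KO arrays and of -1.05 to -0.94 on B_TNF_KO arrays, a difference of -0.35 (SE 0.08, limma adjusted p = 0.111, and 0.029 with the replicate block). Sar1b, the GTPase that starts COPII assembly, had -0.53, -0.66 and -0.46 on TB_TNF_KO arrays and -0.21, -0.32 and -0.24 on B_TNF_KO arrays, a difference of -0.27 (SE 0.06, adjusted p = 0.114, and 0.023 with the block). Neither gene's groups overlapped. Of the 17 genes, the block fit called 0 higher and 2 lower, against 1.75% and 6.28% of all genes. That fit counts TB_TNF_KO arrays 1 and 2 as 2 samples. The probes of Sec24d, Sar1b and Copb1, the 3 lower genes, have a GC content of 26.7%, 35% and 35%. Among all probes with up to 35% GC, 23.2% were lower at an unadjusted p under 0.05. Sar1a, the paralog of Sar1b, differed by 0.03 (SE 0.10, adjusted p = 0.905), and Kdelr3, a receptor that returns ER proteins, by 0.09 (SE 0.14, adjusted p = 0.825).

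Immunoglobulin and plasma cell surface genes were covered in part, with 8 of 22 measured and no probe matched to any immunoglobulin constant region gene of the list, so antibody transcripts were not analysed here. None of the 8 passed the threshold, and 1 was higher and 2 were lower at an unadjusted p under 0.05, against 4.96% and 11.3% of all genes. Tnfrsf17 (BCMA), the survival receptor of plasma cells, had ratios of 0.65, 0.51 and 0.65 on TB_TNF_KO arrays and 0.95, 0.89 and 0.89 on B_TNF_KO arrays. The groups did not overlap, and the difference was -0.29 (SE 0.05, limma adjusted p = 0.064, and 0.022 with the replicate block). Of the 8 genes, that block fit called 1 higher and 1 lower, against 1.75% and 6.28% of all genes. It counts TB_TNF_KO arrays 1 and 2 as 2 samples. Slamf7, a surface receptor of plasma and other immune cells, had 1.22, 1.19 and 1.36 on TB_TNF_KO arrays and 0.88 and 0.84 on B_TNF_KO arrays 1 and 3, the spot on array 2 being left out as an outlier. Its difference was 0.42 (SE 0.07, adjusted p = 0.077, and 0.033 with the block), and it was -0.16 when computed from the authors' deposited table, which held a value for that spot. Cd38 differed by -0.21 (SE 0.11, adjusted p = 0.433), and Cxcr4, the receptor for the chemokine that holds plasma cells in their niches, by 0.09 (SE 0.10, adjusted p = 0.745).

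Genes of the B cell programme that Prdm1 opposes had 15 of 19 measured, with none past the threshold and 2 higher and 4 lower at an unadjusted p under 0.05, beside 4.96% and 11.3% of all genes. Ciita, the activator of MHC class II genes and a known target of repression by Prdm1, had ratios of 1.77, 1.62 and 1.68 on TB_TNF_KO arrays and 0.94, 1.07 and 0.83 on B_TNF_KO arrays. The groups stood apart on this probe, with a difference of 0.74 (SE 0.07, limma adjusted p = 0.055, and 0.012 with the replicate block), but its other probe differed by -0.07. Blk, a B cell kinase, had 2.17, 2.10 and 2.44 on TB_TNF_KO arrays and 2.76, 2.83 and 2.79 on B_TNF_KO arrays, a difference of -0.51 (SE 0.09, adjusted p = 0.073, and 0.019 with the block), while its other probe differed by -0.09. Tnfrsf13c, the BAFF receptor, differed by -0.53 (SE 0.11, adjusted p = 0.097, and 0.021 with the block). Of the 15 genes, the block fit called 1 higher and 4 lower, against 1.75% and 6.28% of all genes. That fit counts TB_TNF_KO arrays 1 and 2 as 2 samples. Irf8 differed by 0.26 (SE 0.10, adjusted p = 0.285) on its brighter probe and by 0.10 on its other. Pax5, the B cell identity factor, differed by -0.08 (SE 0.04, adjusted p = 0.474) on its brighter probe and by 0.07 on its other. Bcl6, the germinal centre repressor that acts opposite to Prdm1, had 0.75, 0.68 and 0.94 on TB_TNF_KO arrays and 1.02, 1.07 and 1.09 on B_TNF_KO arrays, a difference of -0.23 (SE 0.07, adjusted p = 0.214, and 0.0498 with the block), while its other probe differed by -0.02.

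**Figure D5:**
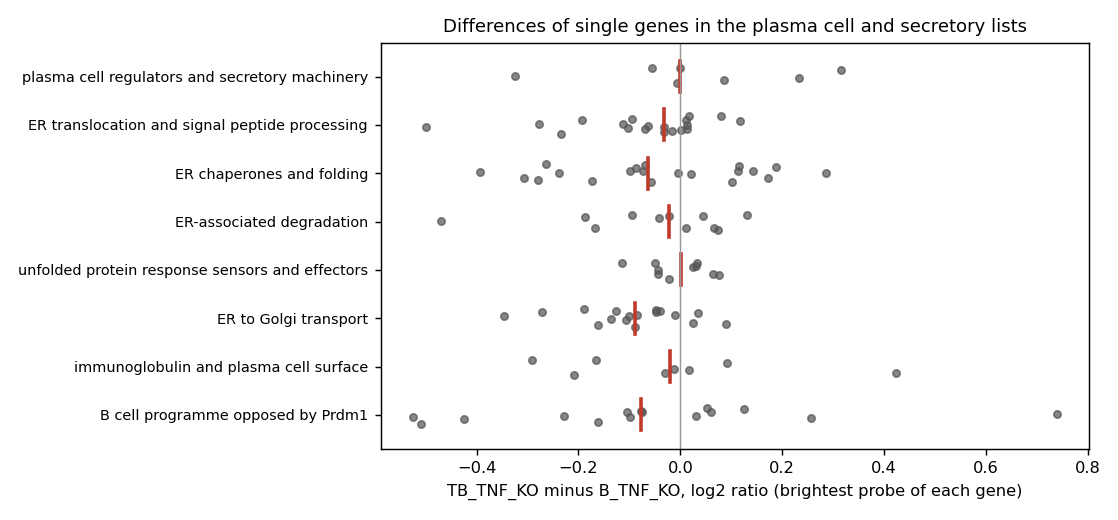
Difference TB_TNF_KO minus B_TNF_KO in log2 ratio (x axis) of each measured gene, by its brightest probe, in the lists named on the y axis; each point is a gene and each red bar the list median. The medians lie between -0.09 and 0.00, while single genes reach from -0.53 (Tnfrsf13c) to 0.74 (Ciita).

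The T cell, epithelial and cycling cell marker lists were measured on the same arrays as a view of other cell types. At an unadjusted p under 0.05, 4.96% of all genes were higher and 11.3% lower. Of 11 T cell markers, 0 were higher and 2 lower, with a median difference of -0.09. Of 16 epithelial markers, 3 were higher and 2 lower, with a median of 0.05, and of 12 cycling cell markers 0 had an unadjusted p under 0.05. None of the 3 lists had a gene past the threshold, and their part in the values above was not tested.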

How the data were processed

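RNA of pooled mesenteric lymph nodes (Cy3) was hybridised with a reference pool of cell line RNA (Cy5) on 6 Agilent arrays. Per the file headers, the authors' scans were quantified in Agilent Feature Extraction version 7.5.1. The deposited scanner files hold mean spot intensity and local background intensity of both channels. The deposited series table holds log10 values with column medians of 2.98 to 2.99, whose scaling between arrays and use of the reference channel are unknown. They correlated at r = 0.993 to 0.996 across probes with the processed sample signal. The p-values are limma's.

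Intensities were corrected with normexp (offset 50) and loess-normalised within each array in limma 3.58.1 under R 4.3.3. Control spots were given weight 0 in loess and dropped afterwards, together with 228 spots marked as outliers. Spots of a probe were averaged. Probes well above background in the sample channel on at least 3 arrays were kept, 40792 of 41006. A RefSeq table of GRCm38.p6 gave a symbol, by accession, to 15303 of 41034 spots, and 25731 kept the file's name. Groups were compared by lmFit and eBayes with Benjamini-Hochberg adjustment over all probes at 0.05, and differences run TB_TNF_KO minus B_TNF_KO, with SEs from the model. Intervals are at 95%. Only the sample labels show that pools came from separate mice, so p-values measure the spread between these samples. Precision is limited by the few arrays.

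The members, gene lists and tests were chosen with earlier results of these data known. Other genes were named as the 2 highest and 2 lowest differences of each list plus some fixed markers. A part of that rule based on Jchain and Mzb1 could not be applied. Values of 1 gene picked this way are not reported here. Deviations from the group means of arrays with the same number correlated at 0.13, 0.53 and 0.62, all above the limit of 0.1 set for pairing. The numbers were taken to pair the samples, although B_TNF_KO array 2 with TB_TNF_KO array 1 reached 0.43. The main fit, which averaged TB_TNF_KO arrays 1 and 2, had no block. The fit with the replicate block was printed where it changed the call of a named gene. It counts these arrays as 2 samples, so its p-values are too small if they held 1 RNA.

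On data simulated for this comparison, 40646 probes with 2 against 3 samples, the fit recovered 85 of 100 at size 1 and 51 of 100 at size 0.5 (log2), and made 6 false calls. The simulated noise was independent between samples. It left out the likeness of arrays with the same number, the GC trend and the extraction day. These counts may thus not hold for the real arrays. Alternatives covered background correction, normalisation, single channels, the authors' values, filters, probe handling and the spread model. They also covered array weights, GC content, pools labelled male, the replicate block and each array left out. The plots were made in matplotlib 3.10.9 (Python 3.11.15).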

Additional observations from a re-analysis of the deposited data

Results flagged for a closer look

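One value stood apart among raw intensities of the same reference RNA. Such intensities are not scaled between arrays, whose median reference intensity ran from 279.5 to 362.3. The reference intensity of the brighter Edem1 probe was 2560.7 on TB_TNF_KO array 3, below 2631 to 2664 on the other 5 arrays that carried the same reference RNA. Its gap to the nearest array exceeded Dixon's 95% critical value for 6 values. The test was run on the reference intensity of each of the 10 probes, and chance flags about 1 in 20 such groups. The cause was not tested.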

How the results depend on the processing

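The member differences and the counts over the whole array (0 higher, 6 lower) were recomputed under up to 26 other settings, 25 of them planned and 1, the sample channel alone with 6 arrays counted separately, chosen after seeing the data. Array 3 of both groups alone gave differences and no test, and the 2 settings with 1 value a gene gave none for the 3 dimmer probes. One of the 10 probes, Sec11c, passed the threshold in 5 of 25 settings with a test and none of the other 9 probes did in any. Its limma adjusted p was 0.026, 0.016, 0.020 and 0.048 in settings that counted TB_TNF_KO arrays 1 and 2 as 2 samples. With these arrays averaged, Sec11c passed only with a trended, robust variance (limma adjusted p = 0.040). The difference of Sec11c ranged from -0.45 to -0.28 over the settings and its adjusted p from 0.016 to 0.514. That of Xbp1 ranged from -0.16 to 0.07 and that of Fkbp11 from 0.19 to 0.61. With 6 arrays counted separately 597 probes were higher and 1868 lower, 1 of them a member. With the replicate block there were 738 higher and 2534 lower, 1 of them a member, and with the replicate block and GC correction 686, 2160 and 1. The sample channel alone gave 174 higher and 178 lower, and with 6 arrays counted separately 1390 and 1627 with 1 member. A trended, robust variance gave 148 higher and 409 lower with 1 member, and array weights 97 and 311. The lower count was 0 without background subtraction, 0 with the authors' processed values and 0 with arrays 1 and 2 of both groups only. The lower count was 1 with a normexp offset of 10, 2 with the mean of a gene's probes and 3 with pools labelled male only. Pools labelled male are the same arrays as those left without TB_TNF_KO array 2. They include TB_TNF_KO array 1, whose Y-linked ratio was like that of the array labelled female, so sex was not held constant. Leaving out 1 array at a time gave 0 to 5 lower, 0 higher and 0 members. It was 0 without B_TNF_KO array 2, 0 without TB_TNF_KO array 3, 1 without B_TNF_KO array 1, and 3 without B_TNF_KO array 3 or TB_TNF_KO array 2. Fits with 6 arrays counted separately have 1 more sample, and their p-values are too small if TB_TNF_KO arrays 1 and 2 held 1 RNA. The causes of the other shifts were not tested. At an unadjusted p under 0.05, limma's lower count was 4018 without background subtraction, 4198 with the authors' values, 2824 with arrays 1 and 2 only, 4336 without B_TNF_KO array 2 and 3834 without TB_TNF_KO array 3, against 4552 as reported. Single-gene differences that missed the threshold as reported turned sign in 51 cases, including Xbp1 in 11 settings and the brighter Prdm1 probe in 8.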

Other observations

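B_TNF_KO array 1 held the lowest ratio of its group for 17 of the 20 ER chaperone and folding genes, 14 of the 19 translocation genes and 8 of the 11 genes of ER-associated degradation, noticed after the values were seen. It was also the lowest for 11 of 17 ER to Golgi genes, 7 of 10 unfolded protein response genes and 9 of 15 B cell programme genes. The same held for 7 of 11 T cell markers, 4 of the 7 member genes and 38.9% of all genes. Other lists did not share this, with that array the lowest for 2 of 7 immunoglobulin and plasma cell surface genes and 3 of 16 epithelial markers. It was the lowest for 3 of 12 cycling cell markers and 0 of 18 pancreas markers. Sdf2l1, an ER chaperone complex subunit, was at 0.38 on that array, against 1.33 and 1.03 on B_TNF_KO arrays 2 and 3. In TB_TNF_KO the lowest array of the chaperone genes was array 1 for 2, array 2 for 10 and array 3 for 8. The median ratio of the chaperone list was -0.06, -0.10 and -0.09 on TB_TNF_KO arrays 1, 2 and 3, and -0.20, 0.00 and -0.13 on B_TNF_KO arrays 1, 2 and 3.

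In the normalised reference channel alone, which carried the same RNA on every array, all 10 probes had a negative difference. Their median was -0.08, against -0.02 over all probes, whose share of negative differences was not counted here. Sign ignored, the median size was 0.08 over the 10 probes and 0.08 over all probes. None of the 40791 probes passed limma's adjusted threshold in this channel, where 3666 were higher and 5534 lower at an unadjusted p under 0.05. The raw reference intensities, not scaled between arrays, overlapped between the groups for each of the 10 probes.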
